A study of Homo sapiens with 6 samples.

Results

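The mRNAs of the EGF receptor family and of its ligands were followed in HCT116, an established colorectal carcinoma cell line of human origin with functional p53. The members were chosen by gene symbol: the receptors EGFR, ERBB2, ERBB3 and ERBB4, and the ligands AREG, EREG, HBEGF, TGFA, EGF and BTC. All 10 symbols were found, each under 1 identifier, among the 27942 genes of the deposited table. Cells were left untreated (NT) or received oxaliplatin, a platinum drug that forms adducts on DNA, at 0.5 µM for 24 h (OXA). Polyadenylated RNA was sequenced from 3 libraries of each group, and both groups came from this single line. The labels call the libraries replicates without saying whether they came from separate cultures, so the p-values measure the spread between these libraries, which may be technical.

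The receptors of this family are tyrosine kinases that pair when a ligand binds. EGFR is bound by AREG, EREG, HBEGF, TGFA, EGF and BTC. ERBB4 is bound by neuregulins and also by HBEGF, EREG and BTC. ERBB2 has no known ligand and serves as a partner, whereas ERBB3 binds neuregulins, has very weak kinase activity and couples its partners to PI3 kinase. The ligands are made as membrane-anchored precursors that metalloproteases such as ADAM17 and ADAM10 cut to release the growth factor. In colorectal carcinoma, high AREG and EREG are known as marks of tumors that depend on EGFR, and antibodies against EGFR are used in treatment.

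The libraries held between 32979521 and 40967880 counts, and 13727 genes passed the filter on low counts. Counts were brought to a common depth by TMM, which gives 1 factor per library, and are called normalized counts. The difference of OXA from NT was tested in edgeR by quasi-likelihood, with p-values adjusted over the 13727 genes after Benjamini and Hochberg, and a gene was called at an adjusted p under 0.05. A log2 fold change is that of OXA over NT, and SE is its standard error. All 8 epithelial markers looked up (EPCAM, CDH1, KRT8, KRT18, KRT19, VIL1, CDX2 and ELF3) were detected, their sum lying between 2210 and 3200 CPM (counts scaled to a fixed library total) in NT and between 3490 and 4240 in OXA. ELF3 was called (log2 fold change 1.12), and KRT8, KRT18, KRT19 and CDX2 lay higher in every OXA library without a call. KRT19 had the largest change of the 8 markers (log2 fold change 1.29, adjusted p = 0.0616 by edgeR). For these and ELF3 the groups did not overlap, which was so, in either direction, for 28.9% of the genes tested. EPCAM, CDH1 and VIL1 overlapped with negative log2 fold changes. Of 9 markers of blood, fibroblast and endothelial cells, 6 (PTPRC, CD3E, COL1A2, DCN, PECAM1 and CDH5) never exceeded 10 counts in any library. DCN was at 0 throughout. The remaining markers, CD68, COL1A1 and VWF, were detected and passed the filter on low counts. Over all libraries CD68 ranged from 152 to 237 counts before normalization, COL1A1 from 107 to 273 and VWF from 13 to 29. Each of these overlapped between groups without a call. The 9 summed to between 8.20 and 14.7 CPM in NT and between 11.3 and 13.7 in OXA. The part of these marker levels in the results was not tested. In RNA from a whole culture, fewer cells that express a gene and less mRNA per cell cannot be told apart.

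RefSeq on GRCh38.p14 gave 11 windows of 300 bases at the start sites of 9 members, from base -250 to base 50. ERBB3 was the member without one. The stretches below are shown because TGFA and HBEGF are the members that were called and AREG and EREG are the most abundant ones. They lie before the RefSeq start of their window and outside every exon of GENCODE release 44, the TGFA stretch within the span of the gene in that release, and are written in the direction of transcription, with matches to the motifs below in capitals. They are chr2:70553974-70554076 on the minus strand for TGFA (bases -250 to -148), chr5:140346604-140346723 on the minus strand for HBEGF, chr4:74445016-74445135 on the plus strand for AREG and chr4:74365025-74365144 on the plus strand for EREG (each bases -120 to -1).
TGFA: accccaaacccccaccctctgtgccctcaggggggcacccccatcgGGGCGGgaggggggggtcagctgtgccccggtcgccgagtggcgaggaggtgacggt
HBEGF: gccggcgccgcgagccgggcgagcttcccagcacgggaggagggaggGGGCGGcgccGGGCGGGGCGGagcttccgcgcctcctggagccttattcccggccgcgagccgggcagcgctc
AREG: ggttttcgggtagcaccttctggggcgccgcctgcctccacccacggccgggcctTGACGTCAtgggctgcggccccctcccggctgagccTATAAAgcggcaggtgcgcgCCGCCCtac
EREG: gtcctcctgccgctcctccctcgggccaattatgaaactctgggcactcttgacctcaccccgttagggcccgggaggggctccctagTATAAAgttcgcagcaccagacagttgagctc

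Motifs were searched on both strands, and a position is that of a match's first base relative to the start. The GC box (GGGCGG) occurred 5 times in the HBEGF window, 3 of them within the printed stretch, where the last 2 overlap. It occurred 4 times in the first of the 2 TGFA windows, 3 times in the first EGFR window and also in windows of AREG, BTC and ERBB4, and 45.0% of all 35116 windows held it. The TATA box (TATAAA) lay at -29 in AREG, at -32 in EREG and at -36 and -146 in the second EGFR window, against 11.5% of all windows with a match anywhere. The cyclic AMP response element (TGACGTCA) was found at -65 in AREG and in 1.85% of all windows. The AP-1 site (TGANTCA) was found in windows of EGF, EGFR and ERBB2 (7.71% of all windows), and the TEAD motif (GGAATG) in EGF, EGFR and EREG (14.0%). The p53 half-site had no match in the 11 windows and a match in 6.63% of all windows. The GC content was 75.3% in the first TGFA window, 63.0% in the second, 75.0% in HBEGF and 75.3% in the first EGFR window, where the median window had 58.7%. A match is a description of the letters and not a site shown to be bound.

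At an adjusted p under 0.05, 2 of the 10 members were higher in OXA, the ligand genes TGFA and HBEGF, and 0 were lower. Over all genes tested, 2.78% were higher and 2.29% lower, 5.07% in all. With upper-quartile factors the split over all genes turned from 381 higher and 315 lower to 348 higher and 493 lower, while TGFA and HBEGF kept their calls. ERBB3 was then called lower (adjusted p = 0.0349 by edgeR). An unadjusted p under 0.05 was reached by 4 members, and by 21.7% of all genes tested. In 5 members, 3 higher and 2 lower, every OXA library lay on the same side of every NT library, which was so for 28.9% of the genes tested. ERBB4, one of the 2 lower members and of the 4 at an unadjusted p under 0.05, passed the filter on low counts only through its NT libraries, which favours such a separation. When the fit was blocked on the replicate number (called the block), 4 members passed, TGFA, HBEGF, AREG (higher) and ERBB3 (lower), against 23.0% of all genes. The median log2 fold change of the members was 0.15, against 0.023 over all genes tested.

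**Figure D1:**
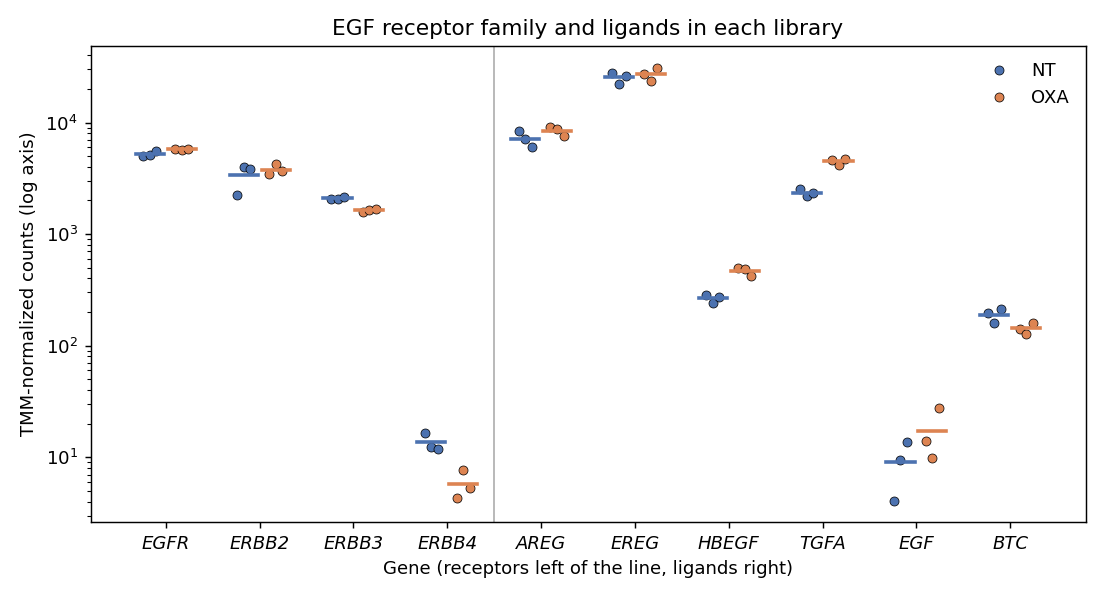
TMM-normalized counts (log axis) of the 4 receptor genes (left of the line) and 6 ligand genes in each of the 3 NT and 3 OXA libraries, with a bar at each group's mean. TGFA and HBEGF are the ligands whose OXA points all lie above NT, while ERBB3 and ERBB4 lie below, and the ERBB2 point near 2261 is NT library 1.

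TGFA (ENSG00000163235, chromosome 2 of GRCh38 from 70447284 to 70554193, minus strand) encodes transforming growth factor alpha, a high-affinity EGFR ligand of epithelia. It had 2514, 2188 and 2356 normalized counts in NT libraries 1 to 3 and 4588, 4194 and 4740.1 in OXA libraries 1 to 3. Every OXA library lay far above every NT library, and both groups were narrow. The means were 2353 ± 163 (SD, n = 3) and 4507 ± 282, a 1.92-fold difference (log2 fold change 0.94, SE 0.094, adjusted p = 0.00360 by edgeR). The call of TGFA held whichever of the 6 libraries was left out, with log2 fold changes from 0.86 to 0.99. It did not pass a test against a 1.5-fold change (adjusted p = 0.0978 by edgeR), although its 95% interval of 0.72 to 1.16 lies above that size.

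HBEGF (ENSG00000113070, chromosome 5 from 140332843 to 140346603, minus strand) encodes the heparin-binding EGF-like growth factor, which binds EGFR and ERBB4 and whose precursor is the diphtheria toxin receptor. It was far lower in counts than TGFA, with 282, 240.1 and 275 normalized counts in NT and 494, 486 and 423 in OXA. The groups did not overlap. HBEGF rose from 266 ± 22.5 to 468 ± 39.0, or 1.76-fold (log2 fold change 0.82, SE 0.14, adjusted p = 0.0200 by edgeR). Its log2 fold change stayed between 0.72 and 0.86 when single libraries were left out, but the call held only without NT library 1. The edgeR adjusted p was 0.00893 without NT library 1, and 0.0652, 0.0770, 0.113, 0.0993 and 0.0687 without NT library 2, NT library 3, OXA library 1, OXA library 2 and OXA library 3. Over all genes, 696 were called with every library kept and 1194 without NT library 1. Without the other libraries, in the same order, 299, 184, 85, 126 and 169 were called.

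AREG, EREG and BTC lie together on the long arm of chromosome 4 with EPGN, the gene of epigen, within 486.1 kb (74308470 to 74794523) between MTHFD2L and PARM1. EREG (ENSG00000124882, 74365145 to 74388749, plus strand) encodes epiregulin, a low-affinity ligand with long-lasting signaling, and had the highest counts of all members. Its normalized counts were 28014, 22253 and 25896 in NT and 27047, 23636 and 31057 in OXA, with overlapping groups. The log2 fold change was 0.10 (SE 0.13, 95% interval -0.20 to 0.41, adjusted p = 0.709 by edgeR), and it changed sign, to -0.02 without NT library 2 and -0.04 without OXA library 3.

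AREG (ENSG00000109321, 74445136 to 74455005, plus strand) encodes amphiregulin, a ligand of gut epithelium with lower affinity for EGFR. It had 8435, 7088 and 6012 normalized counts in NT and 9091, 8711 and 7625 in OXA. NT library 1 lay above OXA library 3, so the groups overlapped, although within each replicate number OXA was the higher one. Without the block AREG was not called (7178 ± 1214 in NT, 8475 ± 760.5 in OXA, with a log2 fold change of 0.24, SE 0.14, adjusted p = 0.365 by edgeR). With the block it was, at a log2 fold change of 0.25 (adjusted p = 0.0381 by edgeR). The estimate fell to 0.09 without NT library 3 and reached 0.37 without NT library 1.

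BTC (ENSG00000174808, 74744759 to 74794523, minus strand) encodes betacellulin, which binds EGFR and ERBB4. It pointed the other way, with 194, 161.1 and 214 normalized counts in NT and 142, 128 and 161.3 in OXA. The groups overlapped only through NT library 2 and OXA library 3, which were nearly equal. BTC was not called (log2 fold change -0.40, SE 0.18, 95% interval -0.82 to 0.011, adjusted p = 0.243 by edgeR), nor with the block (adjusted p = 0.0597 by edgeR). The 4 neighbouring ligand genes thus ranged from EPGN, with at most 5 raw counts in any library and no test, to EREG, with at least 21413 raw counts in every library. Of the flanking genes, MTHFD2L overlapped between groups, and PARM1 lay lower in every OXA library without a call (log2 fold change -0.35, adjusted p = 0.065 by edgeR).

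EGF itself (ENSG00000138798, chromosome 4 from 109912883 to 110013766), the founding ligand of the family, was close to the detection limit. The NT libraries held 4, 9 and 15 raw counts and the OXA libraries 13, 9 and 31. The groups overlapped and OXA library 3 held the highest value, so that the log2 fold change of 0.92 had a wide 95% interval from -0.33 to 2.18 (adjusted p = 0.378 by edgeR). Without OXA library 3 the estimate fell to 0.35.

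Among the receptors, EGFR (ENSG00000146648, chromosome 7 from 55019017 to 55211628, plus strand) was the most abundant by counts. It had 5029, 5152 and 5515 normalized counts in NT and 5839, 5681 and 5767 in OXA. The OXA libraries all exceeded the NT libraries, but by little. The means of 5232 ± 252 and 5762 ± 79.5 gave a log2 fold change of 0.14 (SE 0.079, adjusted p = 0.363 by edgeR) and a 95% interval of -0.044 to 0.32. EGFR was not called with the block (adjusted p = 0.108 by edgeR) or in any other fit.

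ERBB2 (ENSG00000141736, chromosome 17 from 39687914 to 39730426, plus strand), the receptor without a ligand of its own, had 2261, 3995 and 3816 normalized counts in NT and 3436, 4219.5 and 3658 in OXA. NT library 1 stood far below all others, and the groups overlapped. The log2 fold change was 0.17 (SE 0.21, 95% interval -0.31 to 0.65, adjusted p = 0.699 by edgeR), and without NT library 1 it was -0.05. A low NT library 1 was not particular to ERBB2. KRT19 had 6427, 15687 and 14546 normalized counts in NT libraries 1 to 3, and RHBDF2 had 416, 926 and 859. ERBB3 and TGFA did not show it. MIEN1, on the opposite strand, shares 571 bp of exon sequence with ERBB2 and was called higher in OXA (log2 fold change 0.45, adjusted p = 0.0380 by edgeR). PGAP3, also on the opposite strand, shares 144 bp with ERBB2 and was not called (log2 fold change 0.0054, adjusted p = 0.996 by edgeR). The strand setting of the counting is not given in the sources used here. Reads of a stretch that ERBB2 shares may thus be counted for either gene.

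ERBB3 (ENSG00000065361, chromosome 12 from 56076799 to 56103505, plus strand) was the receptor with the clearest separation. Its normalized counts were 2062, 2046 and 2146 in NT and 1585, 1637 and 1675 in OXA. The libraries of each group lay close together, and the groups did not overlap. The means were 2085 ± 53.4 and 1632 ± 45.2 (log2 fold change -0.35, SE 0.083, 95% interval -0.55 to -0.16), just short of the threshold (adjusted p = 0.0556 by edgeR). ERBB3 passed with the block (adjusted p = 0.0112 by edgeR), with DESeq2 (adjusted p = 0.0355) and without NT library 1 (adjusted p = 0.0418 by edgeR). It also passed with upper-quartile factors (adjusted p = 0.0349 by edgeR). With the authors' gene-specific factors it did not pass (log2 fold change -0.38, adjusted p = 0.175 by edgeR). The other 5 fits with 1 library left out gave log2 fold changes from -0.40 to -0.33 and no call.

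A readthrough gene (ENSG00000257411, 56101331 to 56109289) is annotated from ERBB3 into its neighbour PA2G4. Of its 489 bp of exon, only 31 bp are shared with ERBB3 and 458 bp with PA2G4. Its raw counts were 405, 114 and 171 in the NT libraries, and each OXA library held 0. How the authors' counting divided reads between these genes is uncertain. If all its counts were added to ERBB3, a setting chosen after seeing the data, ERBB3 showed a log2 fold change of -0.50 (adjusted p = 0.0246 by edgeR). With 0 counts in each OXA library, the added counts could only lower the log2 fold change of ERBB3. No conclusion is therefore drawn from that fit.

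ERBB4 (ENSG00000178568, chromosome 2 from 211375717 to 212538841, minus strand), the second neuregulin receptor, was barely detected. The NT libraries held 16, 12 and 13 raw counts of it, the OXA libraries 4, 7 and 6. Every OXA library was lower, and only the NT libraries carried ERBB4 over the filter on low counts. The log2 fold change of -1.22 (SE 0.38, 95% interval -2.11 to -0.33) was not called (adjusted p = 0.116 by edgeR, and 0.0837 with the block).

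**Figure D2:**
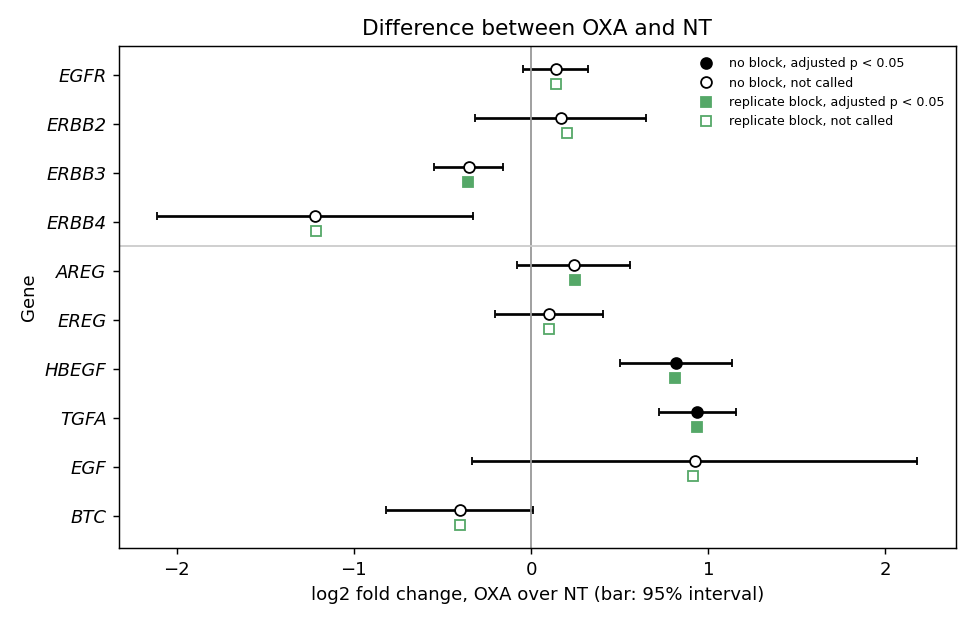
Log2 fold change of OXA over NT for each member, as circles with 95% intervals from the edgeR fit without a block and as squares from the fit with the replicate block (filled where the adjusted p is under 0.05). TGFA at 0.94 and HBEGF at 0.82 are filled in both fits, ERBB3 at -0.35 and AREG at 0.24 only with the block.

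Levels of different genes were compared as CPM per kilobase of annotated exons. In NT, EREG (124 ± 14.2) and AREG (121 ± 20.5) stood far above the rest, and their libraries overlapped. Both ranked at percentile 98.2 of the 13675 tested genes with an annotated length. TGFA followed at 13.3 ± 0.922, at percentile 77.5. EGFR (9.12 ± 0.440) and ERBB2 (9.04 ± 2.57) did not differ beyond their spread, and ERBB3 stood below them at 4.95 ± 0.127, under the lowest ERBB2 library (6.09, NT library 1). HBEGF (2.47 ± 0.209) and BTC (1.99 ± 0.282) came next, with overlapping libraries. EGF (0.033 ± 0.018) and ERBB4 (0.029 ± 0.0052) were last, under the first percentile, and overlapped as well. With the longest transcript as the length, ERBB2 (18.9) moved ahead of TGFA (15.9) and EGFR (14.7) and AREG (162) ahead of EREG (153), so the order within these sets depends on the length used.

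The ligand levels summed to between 245 and 298 CPM per kilobase in NT and between 292 and 318 in OXA, with overlap through NT library 1. AREG and EREG made up most of the sum in both groups. The share of TGFA was 4.77%, 5.06% and 5.42% in NT and 8.17%, 8.12% and 8.57% in OXA. The share of HBEGF was 0.944% ± 0.084 in NT and 1.42% ± 0.147 in OXA. The share of BTC was 0.762% ± 0.131 in NT and 0.489% ± 0.0451 in OXA. TGFA and HBEGF thus took more of the ligand mRNA in every OXA library and BTC less, while remaining minor beside AREG and EREG.

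The summed level of the receptors was 23.1 ± 2.91 in NT and 24.1 ± 0.995 in OXA. Within it, the share of ERBB3 was 24.7%, 19.7% and 20.4% in NT and 16.2%, 15.4% and 16.6% in OXA, with no overlap. EGFR held 39.7% ± 4.08 in NT and 41.8% ± 2.28 in OXA, and ERBB2 38.5% ± 6.83 and 42.1% ± 2.74, both with overlapping libraries. These shares are descriptions with no test.

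**Figure D3:**
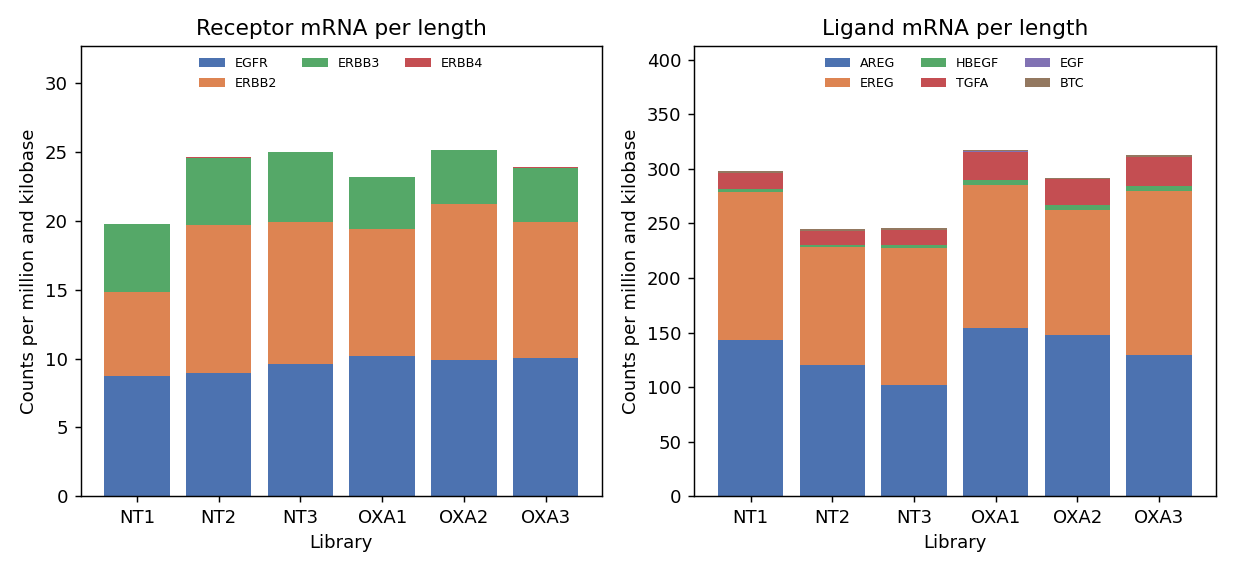
CPM per kilobase of exon in each library, stacked by gene from 0, for the 4 receptors (left) and the 6 ligands (right). AREG and EREG fill most of every ligand bar, the TGFA band is wider in the 3 OXA libraries (8.12% to 8.57% of the sum) than in NT (4.77% to 5.42%), and ERBB2 is narrow in NT library 1.

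The libraries' profiles of TGFA and ERBB3, the ligand and the receptor with the lowest p-value, were compared with those of all tested genes by Pearson correlation of log2 CPM over the 6 libraries. For TGFA the closest genes were INPP1 (r = 0.999) and TIGAR (r = 0.999), and 33 genes exceeded 0.99. For ERBB3 they were SIAE (r = 0.997), ZNF704 (r = 0.996) and TMCO3 (r = 0.996), and 7 genes exceeded 0.99. The 6 points share the treatment and the same libraries, so these values only describe how alike the profiles are.

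The other ligands and the genes that release ligands were looked at as a list of 18, of which 14 were tested. At an adjusted p under 0.05 by edgeR, 0 of the 14 were called, and 3 had an unadjusted p under 0.05, against 5.07% and 21.7% of all genes tested. Their log2 fold changes lay between -0.42 and 0.73, with a median of 0.066. The neuregulin genes NRG1 and NRG4, whose products bind ERBB3 or ERBB4, had log2 fold changes of 0.66 and 0.54 (adjusted p = 0.206 and 0.207 by edgeR), the OXA libraries all exceeding the NT libraries at low levels. NRG1 had 31.7, 41.6 and 51.1 normalized counts in NT and 59.5, 55.6 and 82.0 in OXA. NRG2, the other tested neuregulin gene, overlapped between groups (log2 fold change -0.10, adjusted p = 0.857 by edgeR). NRG3 had 0 counts in all 6 libraries.

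The main sheddases did not differ beyond their spread, ADAM17 with a log2 fold change of 0.0085 (95% interval -0.20 to 0.22) and ADAM10 with -0.075 (95% interval -0.30 to 0.15). ADAM19, a metalloprotease known to cut neuregulins, had 9385, 10579 and 12001 normalized counts in NT and 7516, 7599 and 8808 in OXA. The groups did not overlap, and ADAM19 was not called without the block (log2 fold change -0.42, adjusted p = 0.0864 by edgeR) but was with it (adjusted p = 0.00700 by edgeR) and with DESeq2. The block also called CNIH1, a cargo receptor for TGFA precursors in the early secretory pathway, at a log2 fold change of -0.25 (adjusted p = 0.0207 by edgeR), so that 14.3% of the 14 passed with the block against 23.0% of all genes. RHBDF2, an iRhom that carries ADAM17 to the cell surface, showed a log2 fold change of 0.50 (95% interval -0.16 to 1.16, adjusted p = 0.367 by edgeR) and was lowest in NT library 1.

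Of 39 adaptors, inhibitors and turnover genes that act next to the receptors, all were tested and 1 was called, 25 having positive and 14 negative log2 fold changes with a median of 0.099. Over all genes tested 5.07% were called, 53.3% had a positive log2 fold change and the median was 0.023. PTPN1, which encodes the phosphatase PTP1B that dephosphorylates EGFR, had 4101, 4031 and 3937 normalized counts in NT and 5522, 5156 and 4907 in OXA. It rose in every OXA library (log2 fold change 0.37, SE 0.082, adjusted p = 0.0474 by edgeR), but it lay near the threshold, and fits with other factors, other filters or limma-voom called 0 of the 39. With the replicate number as a block, 8 of the 39 were higher (PTPN1, SHC1, STAT3, SOCS4, SRC, SH3KBP1, LRIG2 and ERRFI1) and 3 lower (GAB1, PIK3CA and PTPRJ), which is 28.2% of the list where 23.0% of all genes passed. Without NT library 1, 4 of the 39 were called, and without any other single library 0.

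**Figure D4:**
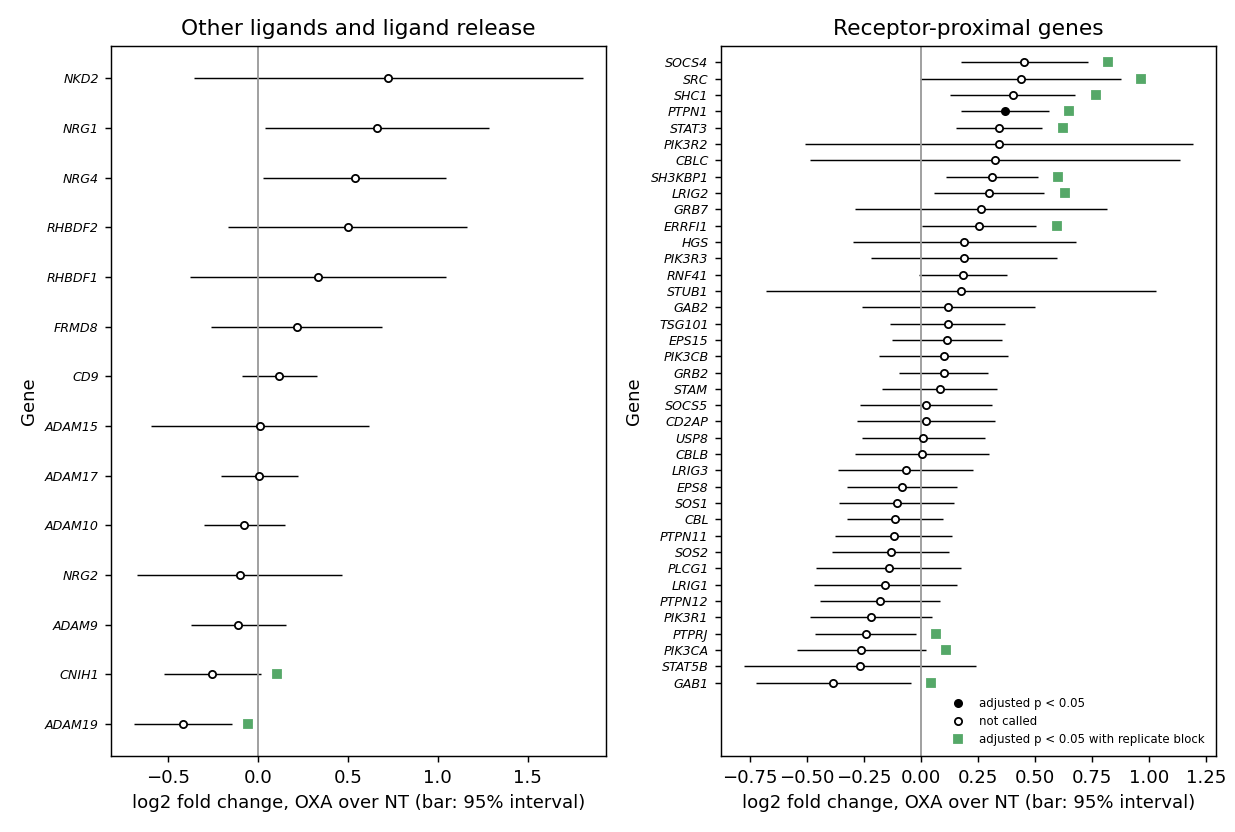
Log2 fold change of OXA over NT with 95% intervals for the 14 tested genes of the list of other ligands and ligand release (left) and the 39 receptor-proximal genes (right), each list in order of fold change. Only PTPN1 is filled (adjusted p under 0.05 without the block), and green squares mark the 2 and 11 genes that passed with the replicate block.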

How the data were processed

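Alignment by the authors was to GRCh38 with STAR 2.7.5b, and the submitters' processing notes also name Trimmomatic 0.32, RSEM 1.3.3 and DESeq2 2.13. Annotation and strand setting are not given in the sources used here. The deposited raw counts, whole numbers per gene and library, entered all tests unchanged. The authors' normalized signal, a count times a factor that differs between genes, served for an alternative only. Genes were filtered with filterByExpr (minimum count 10, minimum total 15), normalized by TMM, and tested with edgeR 4.0.16 (glmQLFit, glmQLFTest; limma 3.58.1, DESeq2 1.42.0, R 4.3.3). Standard errors were derived from the F statistic, and the 95% interval uses the test's degrees of freedom. The fit was tested on simulated data. Positions and lengths came from GENCODE release 44.

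Deviations from the group means went together in NT and OXA libraries of the same number (correlations 0.55, 0.54 and 0.31, against -0.47 to 0.09 for other pairs). Within a group the deviations of a gene sum to 0. Positive values for some pairs thus force lower ones for others, and the contrast is in part built in. The labels give the numbers but not what they stand for, and blocked values are given where they change a call. The members and lists were chosen with earlier results of these data known. Named are all 10 members, called list genes and those singled out after their values were seen, among them NRG1, ADAM19, CNIH1, RHBDF2, MIEN1 and the readthrough gene. Alternatives were other normalization factors, filters and tools, a 1.5-fold test, the block and each library left out. Added after seeing the data were the authors' factors and the readthrough counts. For each of TGFA and ERBB3 the genes with the closest profiles were listed, of which 1 is not reported here.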

Additional observations from a re-analysis of the deposited data

How the results depend on the processing

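Of the members, 2 were called. The replicate block called 4, upper-quartile factors and DESeq2 3 each, the test against a 1.5-fold change 0, and fits with 1 library left out between 1 and 3. TGFA passed in 14 of 15 alternatives and HBEGF in 9, the 1.5-fold test giving HBEGF an adjusted p of 0.815. ERBB3 passed in 4 fits, leaving aside that with the readthrough counts, which could only lower it. With upper-quartile factors it stood at -0.39 (adjusted p = 0.0349 by edgeR), and AREG passed with the block. With a library left out, ERBB2 ranged from -0.05 (without NT library 1, reversed) to 0.28, and EREG from -0.04 (without OXA library 3, reversed) to 0.20, with -0.02 without NT library 2 (reversed). The ligand release list had 0 calls, 1 with DESeq2, 2 with the block and between 0 and 1 with a library left out. The receptor-proximal list had 1 call, 3 with DESeq2, 11 with the block, 0 with RLE or upper-quartile factors, either other filter, limma-voom, the 1.5-fold test or the authors' factors, and between 0 and 4 with a library left out. Over all genes 696 were called, 1192 with DESeq2, 3157 with the block, 50 against 1.5-fold, 441 with the authors' factors and between 85 (without OXA library 1) and 1194 (without NT library 1) otherwise. Low counts of ERBB4 and EGF limit what could be detected for them, and DESeq2 gave both no adjusted p. The longest transcript in place of all exons moved the NT levels per length of EGFR to 14.7, ERBB2 to 18.9, ERBB3 to 9.25, AREG to 162, EREG to 153, HBEGF to 3.13 and TGFA to 15.9. The longest transcript is no longer than all exons together by construction, and the other causes were not tested.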

Other observations

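The authors' own normalized values, which scale each gene by its own factor, moved some members more than others. For EGFR the factors lay between 0.903 and 1.07, and for HBEGF between 0.889 and 1.09. For ERBB4 they lay between 0.660 in OXA library 3 and 3.60 in OXA library 2, and turned raw counts of 4, 7 and 6 in OXA into authors' values of 5.26, 25.2 and 3.96, so that the groups overlapped where the raw counts did not. For EGF the factors lay between 0.375 and 1.74, and raw counts of 4, 9 and 15 in NT became 5.13, 3.37 and 10.4, against 12.6, 15.7 and 23.1 in OXA, so that the groups no longer overlapped. BTC in NT library 1 was raised by a factor of 1.25, to 238. For ERBB3 the factor in NT library 1 was 0.885, where the median over genes was 1.04. With these factors in the edgeR fit, TGFA had an adjusted p of 0.00405, HBEGF of 0.0324 and ERBB3 of 0.175.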
